A study of Homo sapiens with 2 samples.

Results

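The 6 human glypican genes, *GPC1* to *GPC6*, were followed through the cell lineages of blood-generating heart-forming organoids (BG-HFOs). The genes were chosen by symbol from the 36601 genes of the count matrices, and each of the 6 symbols was held by 1 row in both matrices. The data were 10x Genomics 3′ single-cell RNA sequencing counts of unique molecular identifiers (UMIs, 1 per captured RNA molecule) from 2 single organoids, 32.7 and 33.10, with 1 library each. Both came from hES3 NKX2.5-eGFP, 1 human embryonic stem cell line that carries an eGFP reporter of the cardiac gene *NKX2.5*, and were harvested on day 14 of differentiation. Aggregates of these cells had been placed in Matrigel and patterned by switching WNT signalling on with CHIR99021 and then off with IWP2. BMP4, bFGF and VEGF were added early. The later media kept bFGF and VEGF, and BMP4 was added to them again. SCF, EPO, IL-6, IL-11, IGF-1, FLT3 ligand, IL-3 and SHH, among other factors, were added later. Both organoids shared every factor, and no untreated or unmodified organoid was measured. Nothing below therefore concerns a treatment, and each comparison is between cell lineages of the same 2 organoids.

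Glypicans are heparan sulphate proteoglycans that are held in the outer leaflet of the plasma membrane by a glycosylphosphatidylinositol anchor. Their heparan sulphate chains bind secreted ligands such as FGFs, WNTs, BMPs and Hedgehogs, and a glypican can thereby help or hinder the meeting of a ligand and its receptor. The family falls into a branch of *GPC1*, *GPC2*, *GPC4* and *GPC6* and a branch of *GPC3* and *GPC5*. In development *GPC3* is abundant in fetal liver and mesoderm, where it restrains Hedgehog signalling, and its loss causes the overgrowth disorder Simpson-Golabi-Behmel syndrome.

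The family holds 2 pairs of neighbours in the genome (GRCh38, GENCODE 44). *GPC4* (chrX:133300103-133415489) and *GPC3* (chrX:133535745-133987100) lie on the minus strand with 120.256 kb between them, and *GPC5* (chr13:91398621-92873682) and *GPC6* (chr13:93226807-94408020) lie on the plus strand with 353.125 kb between them. *GPC1* (chr2:240435663-240468076, plus strand) and *GPC2* (chr7:100169606-100177381, minus strand) stand alone. Gene spans ran from 7.776 kb for *GPC2* to 1475.062 kb for *GPC5*, whereas the canonical transcripts ran only from 2.267 kb for *GPC3* to 7.121 kb for *GPC6*, and the counts included intronic reads. Promoter sequences of *GPC1*, *GPC2*, *GPC4*, *GPC5* and *GPC6* were in the RefSeq table used (GRCh38.p14), and *GPC3* was not. The 250 bases before the start are shown for *GPC1* and *GPC2*, whose levels moved together over the gates, and for the neighbours *GPC5* and *GPC6*, whose levels did not. Capitals mark GC boxes (GGGCGG) and TATA motifs (TATAAA), each on either strand, with adjoining matches running together.
GPC1, chr2:240435413-240435662, plus strand: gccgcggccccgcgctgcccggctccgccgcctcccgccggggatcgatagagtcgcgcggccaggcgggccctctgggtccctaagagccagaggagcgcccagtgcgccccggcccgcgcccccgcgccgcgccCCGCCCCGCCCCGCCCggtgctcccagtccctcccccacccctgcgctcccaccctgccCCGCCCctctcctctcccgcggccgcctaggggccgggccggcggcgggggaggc
GPC2, chr7:100177382-100177631, minus strand: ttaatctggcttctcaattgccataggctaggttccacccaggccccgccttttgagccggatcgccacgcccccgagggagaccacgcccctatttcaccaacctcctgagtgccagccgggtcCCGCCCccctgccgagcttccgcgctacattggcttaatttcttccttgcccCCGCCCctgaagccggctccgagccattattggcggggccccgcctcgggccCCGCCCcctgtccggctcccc
GPC5, chr13:91398371-91398620, plus strand: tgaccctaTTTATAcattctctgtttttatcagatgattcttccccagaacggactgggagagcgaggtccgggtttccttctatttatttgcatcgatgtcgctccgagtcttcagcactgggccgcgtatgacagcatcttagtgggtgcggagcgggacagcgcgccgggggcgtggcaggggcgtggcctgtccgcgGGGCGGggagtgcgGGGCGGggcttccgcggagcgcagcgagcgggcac
GPC6, chr13:93226557-93226806, plus strand: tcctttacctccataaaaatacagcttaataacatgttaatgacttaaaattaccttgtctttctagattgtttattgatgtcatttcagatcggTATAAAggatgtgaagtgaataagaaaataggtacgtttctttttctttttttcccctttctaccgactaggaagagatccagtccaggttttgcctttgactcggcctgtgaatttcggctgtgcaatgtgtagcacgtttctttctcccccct

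The printed promoters held 4 GC boxes in *GPC1* and 3 in *GPC2*. *GPC5* held 2 GC boxes and 1 TATA motif, and *GPC6* held 1 TATA motif and 37.6% G and C, against 84.0% in *GPC1*, 66.8% in *GPC2* and 62.4% in *GPC5* (the median of all promoters in the table was 58.0%). *GPC4* held 2 GC boxes in a window of 76.0% G and C. A GC box was in 42.6% and a TATA motif in 10.7% of the 35116 promoters of the table, so these motifs are common ones. The GATA motif AGATAA was found in 9.17% of all promoters and in none of the 5 glypican windows, which says only that these letters are not there.

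The libraries held 16866 barcodes for organoid 32.7 and 19948 for 33.10, with 191152562 and 233818881 UMIs, and 100 barcodes were shared between them (0.593% of those of 32.7). Cells were placed in 7 gates by raw UMIs of *HBZ* (embryonic globin), *PF4* (platelet factor), *PTPRC* (the leukocyte antigen CD45), *CDH5* (VE-cadherin), *MYH6* (cardiac myosin), *COL3A1* (fibrillar collagen) or *AFP* (alpha-fetoprotein), and a cell over more than 1 threshold was left out, except that *PTPRC* was ignored in the *HBZ* and *PF4* gates. The gates took 9205 of 16792 cells kept in 32.7 (54.8%) and 11171 of 19893 in 33.10 (56.2%). Organoid 32.7 gave 784 cells for *HBZ*, 1208 for *PF4*, 863 for *PTPRC*, 2208 for *CDH5*, 1350 for *MYH6*, 2643 for *COL3A1* and 149 for *AFP*. Organoid 33.10 gave 1782, 3192, 405, 2099, 1397, 2286 and 10 in the same order, so the *AFP* gate rests almost wholly on 32.7. Each marker given here was highest in its own gate in both organoids, for the erythroid markers *ALAS2*, *AHSP*, *HBE1* and *SLC4A1*, 5 of 5 of megakaryocytes (*ITGA2B*, *GP9*), 6 of 6 myeloid (*LYZ*, *MPO*), 6 of 6 endothelial (*PECAM1*, *KDR*), 6 of 6 of cardiomyocytes (*TNNT2*, *TTN*), 6 of 6 stromal (*COL1A1*, *LUM*) and 6 of 6 of foregut endoderm or liver (*APOA1*, *TTR*). Levels are given in CPM, the UMIs of a gene per 1000000 UMIs summed over the cells of a gate in an organoid, first for 32.7 and then for 33.10.

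The 6 genes differed in their order of gates, and some shared their highest gates. *GPC1* and *GPC2* were highest in the *MYH6* and *COL3A1* gates, *GPC3* in the *AFP* and then the *COL3A1* gate, *GPC4* in the *MYH6* and then the *HBZ* gate, *GPC5* in the *PF4* gate, and *GPC6* was the main glypican by UMIs in every gate except *PF4* and *AFP*, where *GPC5* and *GPC3* had more. Summed over the family, glypicans took 3277 and 3925 CPM in the *AFP* gate, 1318 and 1279 in the *COL3A1* gate, 512 and 548 in the *MYH6* gate and 414 and 516 in the *CDH5* gate. The 3 blood gates were lower, with 123 and 124 CPM in *HBZ*, 142 and 150 in *PF4* and 122 and 108 in *PTPRC*. The highest blood value, 150, was below the lowest value of the other gates, 414.

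**Figure D1:**
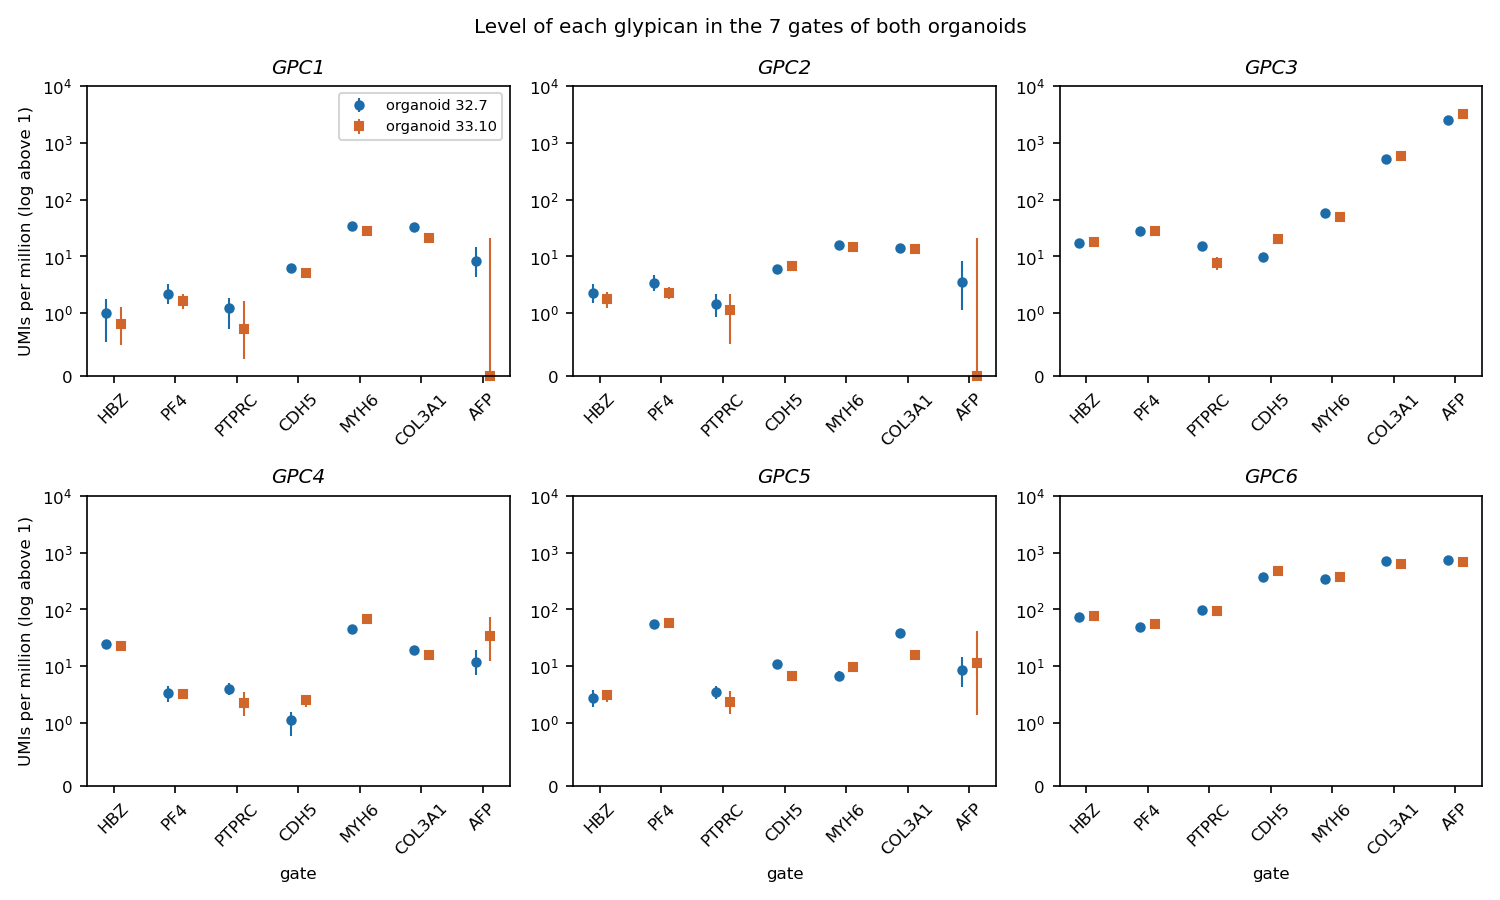
Levels in CPM of *GPC1* to *GPC6* (vertical axis, linear below 1 and logarithmic above) in the 7 gates (horizontal axis) of organoid 32.7 (circles) and 33.10 (squares), with exact 95% Poisson intervals that cover counting error only. *GPC5* stood at 56.1 and 58.3 in the *PF4* gate and at 2.39 to 3.55 in the other 2 blood gates, and *GPC4* at 24.3 and 22.8 in the *HBZ* gate.

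*GPC1*, a glypican of skeletal muscle and brain that can present FGF2 to its receptor, was at 34.7 and 28.1 CPM in the *MYH6* gate and at 33.5 and 20.9 in the *COL3A1* gate, and the ranges of the 2 gates overlapped. It was at 6.38 and 5.11 in the *CDH5* gate, 2.23 and 1.63 in the *PF4* gate, 1.23 and 0.756 in the *PTPRC* gate and 1.03 and 0.832 in the *HBZ* gate. The *AFP* gate gave 8.49 and 0 CPM, the latter from 174023 UMIs in all, which allows up to 17.2 CPM. *GPC1* thus fell into a high pair of gates, a middle *CDH5* gate and low blood gates, of which *PTPRC* and *HBZ* overlapped.

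*GPC2*, also called cerebroglycan and known from the developing nervous system, gave 16.0 and 14.5 CPM in the *MYH6* gate, 13.9 and 13.5 in the *COL3A1* gate and 5.97 and 6.86 in the *CDH5* gate. Its levels were 3.42 and 2.29 in the *PF4* gate, 2.30 and 1.75 in the *HBZ* gate and 1.47 and 1.13 in the *PTPRC* gate. The order of the first 3 gates was the same as for *GPC1*, with no overlap between neighbours, whereas the *PF4* and *HBZ* ranges overlapped, and the *AFP* gate gave 3.54 and 0. Over the 14 sums (7 gates in each organoid), *GPC1* and *GPC2* had a Pearson r of 0.96 on the log2(CPM + 1) scale, the highest of any pair in the family (points share a library in groups of 7, and r is given as a description). Both were at 0 in the *AFP* gate of 33.10, where a count of 0 allows up to 17.2 CPM.

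*GPC4*, a glypican of pluripotent and neural progenitor cells, was at 45.4 and 68.6 CPM in the *MYH6* gate, its highest. The *HBZ* gate came next with 24.3 and 22.8 CPM, above the *COL3A1* gate with 19.7 and 15.6 in both organoids. The *AFP* gate gave 12.0 and 34.5 from only 17 and 6 UMIs. Of the *COL3A1* cells, the *WT1/TBX18* part (defined below) gave 24.5 and 20.2 CPM and overlapped the *HBZ* gate. The *LUM* part (17.1 and 12.5) and the other *COL3A1* cells (15.9 and 11.3) lay below the *HBZ* gate. *GPC4* was far lower in the other blood gates, at 3.34 and 3.26 in *PF4* and 4.04 and 2.27 in *PTPRC*. It was lowest in the *CDH5* gate at 1.14 and 2.52. The range of the *PTPRC* gate overlapped those of the *PF4* and *CDH5* gates, whereas *PF4* lay above *CDH5* with no overlap.

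*GPC6*, whose loss causes the skeletal disorder omodysplasia, was broad. Its levels were 754 and 695 CPM in the *AFP* gate and 703 and 626 in the *COL3A1* gate, which overlapped, then 380 and 475 in the *CDH5* gate and 351 and 377 in the *MYH6* gate. The blood gates gave 96.5 and 93.7 CPM in *PTPRC*, 74.8 and 77.3 in *HBZ* and 48.6 and 56.5 in *PF4*, in the same order in both organoids.

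*GPC3* had the widest range of the family, from 7.68 CPM in the *PTPRC* gate of 33.10 to 3183 in the *AFP* gate of the same organoid. It was at 2490 and 3183 CPM in the *AFP* gate, 510 and 587 in the *COL3A1* gate and 57.9 and 49.9 in the *MYH6* gate. Next came 28.6 and 28.0 CPM in the *PF4* gate and 17.5 and 18.3 in the *HBZ* gate. The *CDH5* gate gave 9.63 and 20.2 CPM and the *PTPRC* gate 15.6 and 7.68, and these lowest gates overlapped.

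*GPC5*, the other member of the *GPC3* branch, had another order altogether. The *PF4* gate gave 56.1 and 58.3 CPM, above the *COL3A1* gate of either organoid, which differed between organoids at 37.9 and 16.1. Of the *COL3A1* cells, the *LUM* part (defined below) gave 68.3 and 27.1, above the *PF4* gate in 32.7 and below it in 33.10. The *WT1/TBX18* part (19.3 and 15.8) and the other *COL3A1* cells (21.6 and 10.8) lay below the *PF4* gate. Lower levels followed in the *AFP* gate (8.49 and 11.5, from 12 and 2 UMIs), the *CDH5* gate (10.9 and 6.75) and the *MYH6* gate (6.79 and 9.59). *PTPRC* cells gave 3.55 and 2.39 CPM and *HBZ* cells 2.77 and 3.07, the lowest 2 gates. *GPC5* and its neighbour *GPC6* had an r of 0.05 over the 14 gate sums, and the neighbours *GPC3* and *GPC4* one of 0.48.

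Levels in CPM compare 1 gene between gates. Between genes they can also depend on gene structure, as intronic reads were counted. The family's make-up of each gate was therefore set on 3 scales. In 3′ libraries a UMI stands for 1 captured molecule, so UMI counts need not grow with transcript length. The scale per kilobase of transcript is a description only. By UMIs, *GPC6* made up 91.8% and 92.0% of glypican UMIs in the *CDH5* gate, 78.9% and 86.8% in *PTPRC*, 68.6% and 68.8% in *MYH6*, 61.0% and 62.3% in *HBZ* and 53.3% and 49.0% in *COL3A1*. In the *PF4* gate *GPC5* led with 39.4% and 38.9%, close to *GPC6* with 34.2% and 37.7%. Per kilobase of canonical transcript, *GPC3* led the *COL3A1* gate with 63.4% and 70.7%, and *GPC5* led the *PF4* gate with 46.3% and 47.1%. On the same scale *GPC4* held 19.4% and 18.1% of the *HBZ* gate, whereas its share of the *CDH5* gate was 0.350% and 0.616%. Per kilobase of gene span, which counts introns, the short *GPC2* gene led in the *PF4* gate with 64.7% and 56.4% and *GPC5* came to 5.59% and 7.55%. Which glypican led a gate therefore depended on the scale used. Each scale divides the UMIs of a gene by 1 length, so its ratio between gates could not change with the scale. Intronic and exonic UMIs were not told apart, and the part of intronic reads in the differences between gates was not tested.

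Differences between gates were tested on the sums per gate and organoid with edgeR's quasi-likelihood test in 1 fit over all gates and all genes. A gene was called at a Benjamini-Hochberg adjusted p under 0.05 and a log2 fold change of at least 1 in size. All p-values rest on the spread between 2 organoids, and the gates of an organoid come from 1 library, so they do not speak for other lines or batches. For the *COL3A1* against the *CDH5* gate, 5 of 6 glypicans were called higher and 19.8% of all 21702 genes tested were (10.1% were called lower). *GPC3* was higher by 5.20 on the log2 scale (SE 0.35, edgeR adjusted p = 5.81e-07) and *GPC4* by 3.28 (SE 0.33, edgeR adjusted p = 1.17e-05). *GPC1* was higher by 2.22 (SE 0.27, edgeR adjusted p = 4.85e-05), *GPC5* by 1.60 (SE 0.37, edgeR adjusted p = 0.00409) and *GPC2* by 1.07 (SE 0.20, edgeR adjusted p = 0.00107). *GPC6* differed by 0.62 (SE 0.12, edgeR adjusted p = 0.00124), short of the fold required. With cells over several thresholds kept, *GPC2* (0.79) and *GPC5* (0.99) fell short of the fold, as did *GPC2* with doubled thresholds (0.97). Here and below, such kept cells were counted in every gate they passed, so compared gates could share cells. On leaving out an organoid here and below, each compared gate was 1 sum, which was assumed to vary between organoids like the other gates of the fit. Without organoid 32.7 the *GPC2* difference was 0.95 (edgeR adjusted p = 0.0514, over all alternatives 9.37e-05 to 0.0514).

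For the *MYH6* against the *CDH5* gate, 4 of 6 glypicans were called higher, against 20.7% of all genes (14.7% lower). The difference was 4.97 for *GPC4* (SE 0.34, edgeR adjusted p = 4.78e-07), 2.42 for *GPC1* (SE 0.27, edgeR adjusted p = 2.12e-05), 1.85 for *GPC3* (SE 0.31, edgeR adjusted p = 0.000387) and 1.23 for *GPC2* (SE 0.21, edgeR adjusted p = 0.000387). *GPC5* differed by -0.13 (95% interval -0.91 to 0.65) and *GPC6* by -0.25 (-0.48 to -0.01), and neither passed. Intervals of fold changes here and below use a normal approximation and are narrower than the test implies. That of *GPC6* has both ends negative, while its unadjusted edgeR p was 0.0652. With cells over several thresholds kept, *GPC2* (0.87) and *GPC3* (0.81) fell short of the fold.

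Cardiomyocytes and stroma differed in the *GPC3* branch and in *GPC4*. In the *MYH6* against the *COL3A1* gate *GPC4* was called higher, by 1.69 (SE 0.28, edgeR adjusted p = 0.000596), 1 of 6 against 10.1% of all genes. *GPC3* (log2 fold change -3.34, SE 0.32, edgeR adjusted p = 1.35e-05) and *GPC5* (-1.73, SE 0.39, edgeR adjusted p = 0.00443) were called lower, 2 of 6 against 12.6% of all genes. *GPC1* differed by 0.20 (95% interval -0.29 to 0.69) and *GPC2* by 0.16 (-0.23 to 0.55), differences that did not pass the test. *GPC6* differed by -0.87 (SE 0.12, edgeR adjusted p = 0.000196), under the fold required with both organoids and past it without 33.10 (-1.03). The *GPC5* difference was -0.74 with cells over several thresholds kept and was then not called. Without organoid 33.10 the *GPC4* difference was 1.18 (edgeR adjusted p = 0.0511, over all alternatives 3.58e-07 to 0.0511), and without 32.7 that of *GPC5* was -0.72 (edgeR adjusted p = 0.166, over all alternatives 0.000155 to 0.166).

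The mean of the 3 blood gates was compared with the mean of the *CDH5*, *MYH6* and *COL3A1* gates. In it 4 of 6 glypicans were called lower, against 23.5% of all genes (12.4% higher). The log2 fold change was -3.46 for *GPC1* (SE 0.20, edgeR adjusted p = 6.64e-08), -2.34 for *GPC6* (SE 0.07, edgeR adjusted p = 1.14e-09), -2.15 for *GPC2* (SE 0.14, edgeR adjusted p = 1.68e-07) and -1.70 for *GPC3* (SE 0.18, edgeR adjusted p = 8.04e-06). With cells over several thresholds kept, *GPC2* fell short of the fold (-0.95). *GPC4* at -0.58 (edgeR adjusted p = 0.0182) and *GPC5* at -0.29 (edgeR adjusted p = 0.315) were not called, and these are the 2 with 1 high blood gate.

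**Figure D2:**
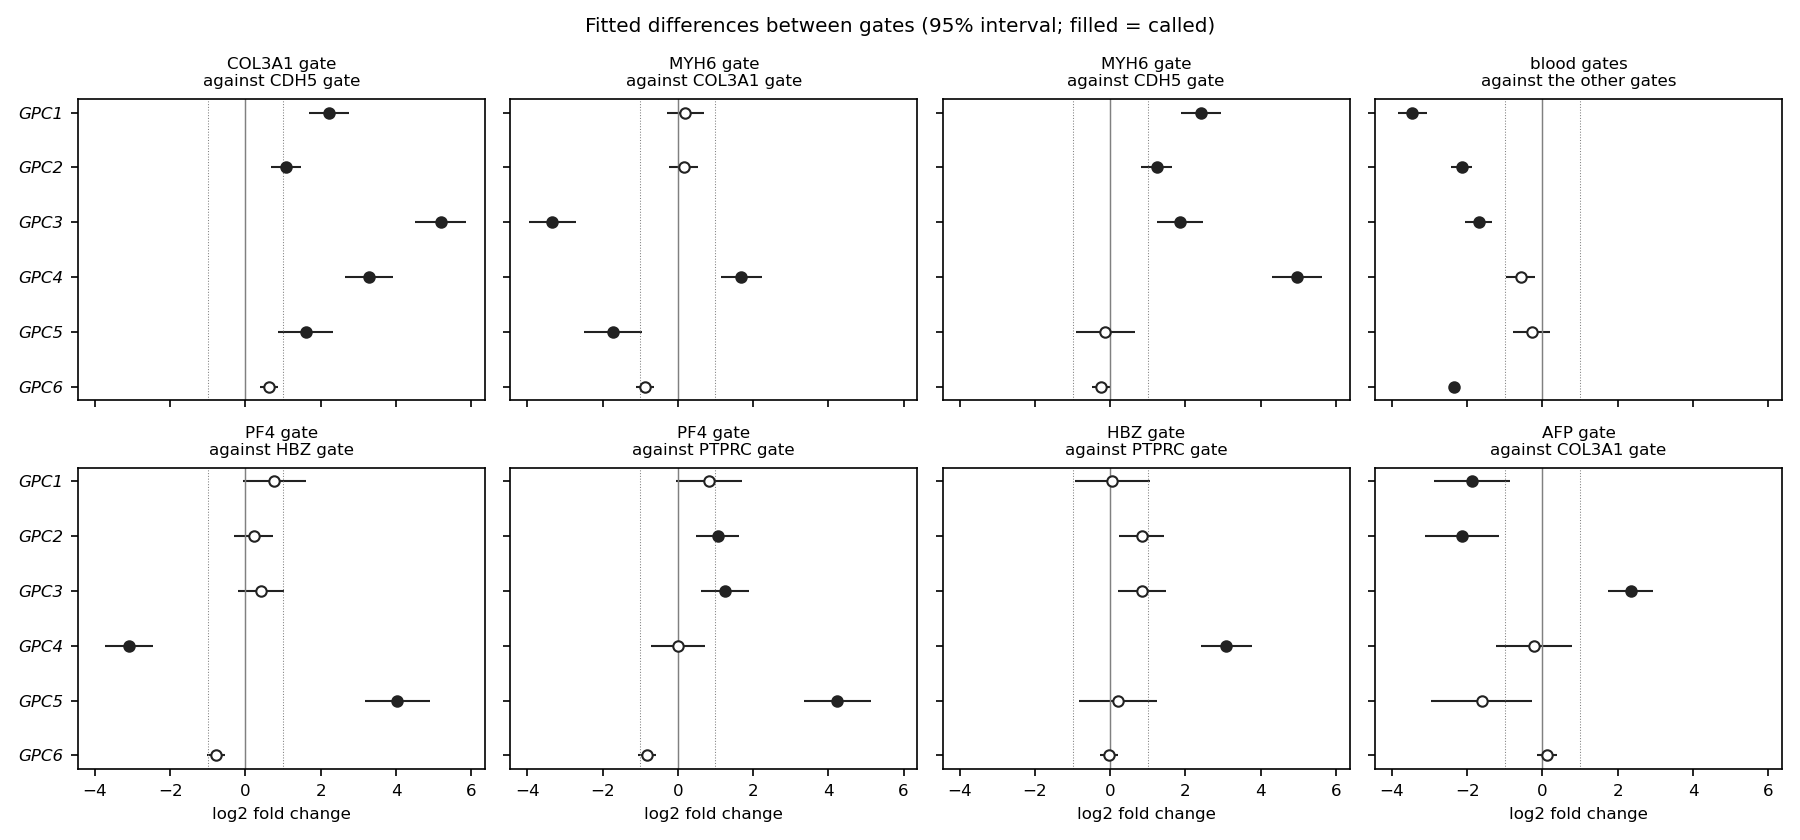
Fitted log2 fold changes (horizontal axis) of *GPC1* to *GPC6* in 8 comparisons of gates, with approximate 95% intervals. The intervals use a normal approximation and are narrower than the edgeR test implies. Filled points were called and dotted lines stand at a log2 fold change of 1 in either direction. The comparisons within blood and that of the *AFP* gate were added after the levels had been seen. *GPC5* sat at 4.03 and 4.24 in the *PF4* gate against the *HBZ* and *PTPRC* gates, and *GPC4* at -3.09 in *PF4* against *HBZ*.

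The 3 comparisons within blood were added after the levels had been seen, so their *GPC4* and *GPC5* differences describe what prompted them. Their counts of called glypicans include these genes and are a description only, as are the *GPC2* and *GPC3* calls. In the *PF4* against the *HBZ* gate *GPC5* was higher by 4.03 (SE 0.44, edgeR adjusted p = 2.67e-05) and *GPC4* lower, at -3.09 (SE 0.33, edgeR adjusted p = 2.18e-05), 1 of 6 in each direction against 17.3% of all genes higher and 8.77% lower. In the *PF4* against the *PTPRC* gate *GPC5* was higher by 4.24 (SE 0.46, edgeR adjusted p = 2.49e-05), with *GPC3* (1.26, SE 0.33, edgeR adjusted p = 0.00816) and *GPC2* (1.06, SE 0.30, edgeR adjusted p = 0.0124) also called, 3 of 6 against 16.7% of all genes (12.1% lower). The *GPC2* call was lost without organoid 32.7 (1.08), with halved thresholds (0.62), with cells over several thresholds kept (0.75) and with cells of at most 30000 UMIs (0.85). The *GPC3* call was lost without 33.10 (0.94), with halved thresholds (0.94) and with cells over several thresholds kept (0.64). In the *HBZ* against the *PTPRC* gate *GPC4* was higher by 3.09 (SE 0.34, edgeR adjusted p = 2.98e-05), 1 of 6 against 9.49% of all genes (15.6% lower). Without organoid 32.7 *GPC3* was called in this comparison too, at 1.60 against 0.84 with both organoids.

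The *AFP* gate held fewer than 20 cells in organoid 33.10 and was therefore kept out of the fit above; it was compared with the *COL3A1* gate in a fit with no minimum of cells, added after the cell numbers had been seen. *GPC3* was called higher there, by 2.34 (SE 0.30, edgeR adjusted p = 0.00016), 1 of 6 against 6.54% of all 21656 genes tested. *GPC1* (-1.88, SE 0.52, edgeR adjusted p = 0.0222) and *GPC2* (-2.13, SE 0.50, edgeR adjusted p = 0.0101) were called lower, 2 of 6 against 6.88%, from 12 and 5 UMIs in 32.7 and 0 in 33.10. Of all calls in this comparison 48.7% were higher, and 61.8% with DESeq2. Neither *GPC1* nor *GPC2* was called without organoid 32.7, where their fitted values (-11.44 and -10.80) rest on 0 UMIs in the *AFP* gate and are no bound. *GPC1* was not called with halved thresholds (-1.59) or with cells over several thresholds kept (-1.38) either, whereas *GPC3* was called in every alternative, with log2 fold changes of 2.03 to 2.44. *GPC6* differed by 0.11 (95% interval -0.16 to 0.38). Without organoid 33.10 *GPC5* was called lower, at -2.13 against -1.62 with both organoids.

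Single cells were compared after each had been thinned at random to 3000 UMIs, with shallower cells left out. *GPC6* was found in 71.8% (95% exact binomial interval 70.1 to 73.6) and 69.1% (67.2 to 71.0) of *COL3A1* cells, and *GPC3* in 58.3% (56.4 to 60.2) and 58.6% (56.5 to 60.6). In the *AFP* gate *GPC3* was found in 98.2% (93.8 to 99.8) of 114 cells of 32.7 and in 100.0% of 8 cells of 33.10 (63.1 to 100.0). *GPC4* was found in 11.0% (9.21 to 12.9) and 17.1% (15.1 to 19.3) of *MYH6* cells, in 5.69% (4.07 to 7.69) and 6.48% (5.34 to 7.78) of *HBZ* cells and in 0.466% (0.224 to 0.856) and 0.691% (0.378 to 1.16) of *CDH5* cells. *GPC5* was found in 9.97% (8.10 to 12.1) and 11.5% (10.3 to 12.8) of *PF4* cells, against 1.17% (0.505 to 2.28) and 0.909% (0.509 to 1.49) of *HBZ* cells. Intervals cover counting error only. Thinning left out 29 of 2643 and 14 of 2286 *COL3A1* cells, 295 of 1208 and 584 of 3192 *PF4* cells, 98 of 784 and 131 of 1782 *HBZ* cells, 220 of 1350 and 89 of 1397 *MYH6* cells and 63 of 2208 and 72 of 2099 *CDH5* cells. Without thinning *GPC5* was found in 15.2% and 19.1% of *PF4* cells (median 6951 and 7292 UMIs per cell) and 2.93% and 2.19% of *HBZ* cells (median 12626 and 10129), so the deeper gate had the smaller share.

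**Figure D3:**
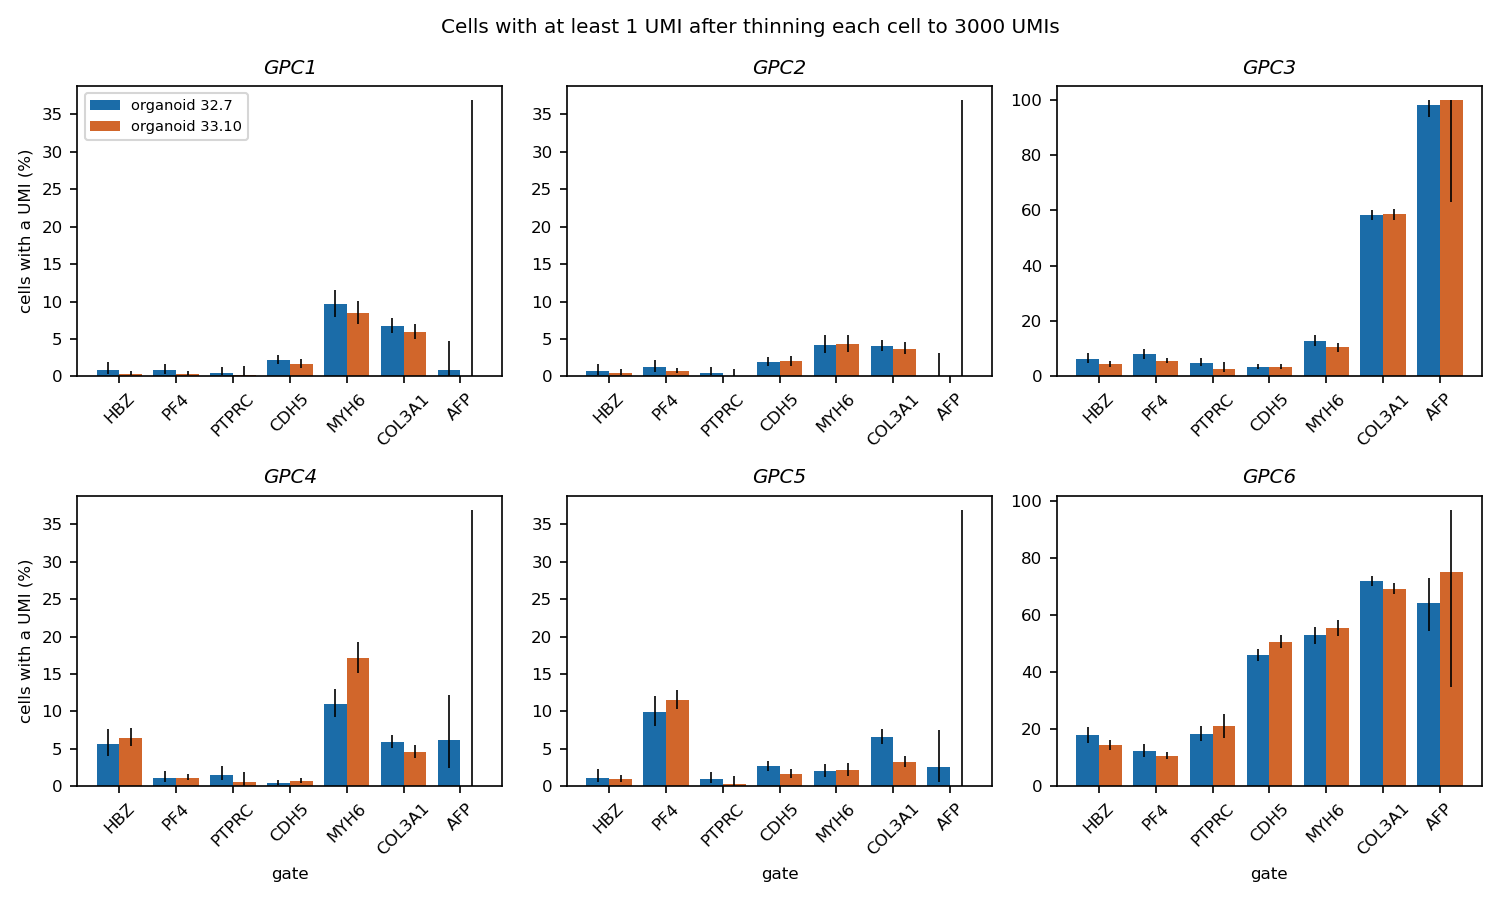
Share of cells with at least 1 UMI of each glypican (vertical axis, percent; the scale differs between panels) in the 7 gates (horizontal axis) after thinning each cell to 3000 UMIs, for organoid 32.7 (left bars) and 33.10 (right bars), with exact 95% binomial intervals. The *AFP* bars of 33.10 rest on 8 cells, and *GPC5* in the *PF4* gate (9.97% and 11.5%) and *GPC4* in the *HBZ* gate (5.69% and 6.48%) stood above the other blood gates.

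Most cells that showed a glypican showed 1 or 2 of them. In the *COL3A1* gate 42.7% and 42.2% of thinned cells had UMIs of 2 glypicans, 10.2% and 7.88% had 3 or more, and 10.1% and 12.9% had none. In the *CDH5* gate 44.9% and 49.0% had 1 and 5.31% and 4.88% had 2. In the 3 blood gates 73.4% to 77.1% of cells had none. The highest count of *GPC3* in a *COL3A1* cell was 31 and 20 UMIs, and that of *GPC5* in a *PF4* cell 15 and 10 UMIs, whereas the median *PF4* cell had 0.

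Glypicans within the blood gates were described in 3 ways, none of them tested. The first split each gate at the median of its gate gene per UMI. The parts also differed in depth. Cells of lower *PF4* had a median of 7790 and 8219 UMIs against 5137 and 6394 in the others. Cells of lower *PTPRC* had 19103 and 19445 against 12167 and 12016, and cells of lower *HBZ* had 12292 and 10751 against 12881 and 9548. In the *HBZ* gate *GPC3* was at 27.0 and 27.8 CPM in cells of lower *HBZ* and at 7.14 and 6.98 in cells of higher *HBZ*, and *GPC6* at 111 and 108 against 34.9 and 40.5. *GPC4* was at 24.1 and 24.2 CPM in the former and 24.4 and 21.2 in the latter, whereas *GPC5*, low in this gate, went the way of *GPC3* with 4.85 and 4.29 against 0.498 and 1.62. In the *PF4* gate *GPC3* was at 41.5 and 38.7 against 9.20 and 13.4 and *GPC6* at 70.6 and 79.7 against 15.6 and 25.0, whereas *GPC5* was higher in cells of higher *PF4*, at 75.8 and 73.6 CPM against 42.9 and 46.9. *GPC4*, low in this gate, went the way of *GPC3* with 4.71 and 4.33 against 1.28 and 1.80. The stromal collagen gene *COL1A2* went the way of *GPC3*, with 54.3 and 35.7 CPM in *HBZ* cells of lower *HBZ* against 11.0 and 12.1, and 68.8 and 55.0 in *PF4* cells of lower *PF4* against 15.0 and 19.3. In the *PTPRC* gate *GPC3* was at 19.6 and 11.1 CPM in cells of lower *PTPRC* against 9.51 and 2.75. *GPC6* was at 116 and 98.5 there against 67.5 and 86.8, a small gap in 33.10. *COL1A2* was at 27.4 and 28.5 against 15.8 and 5.81.

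**Figure D4:**
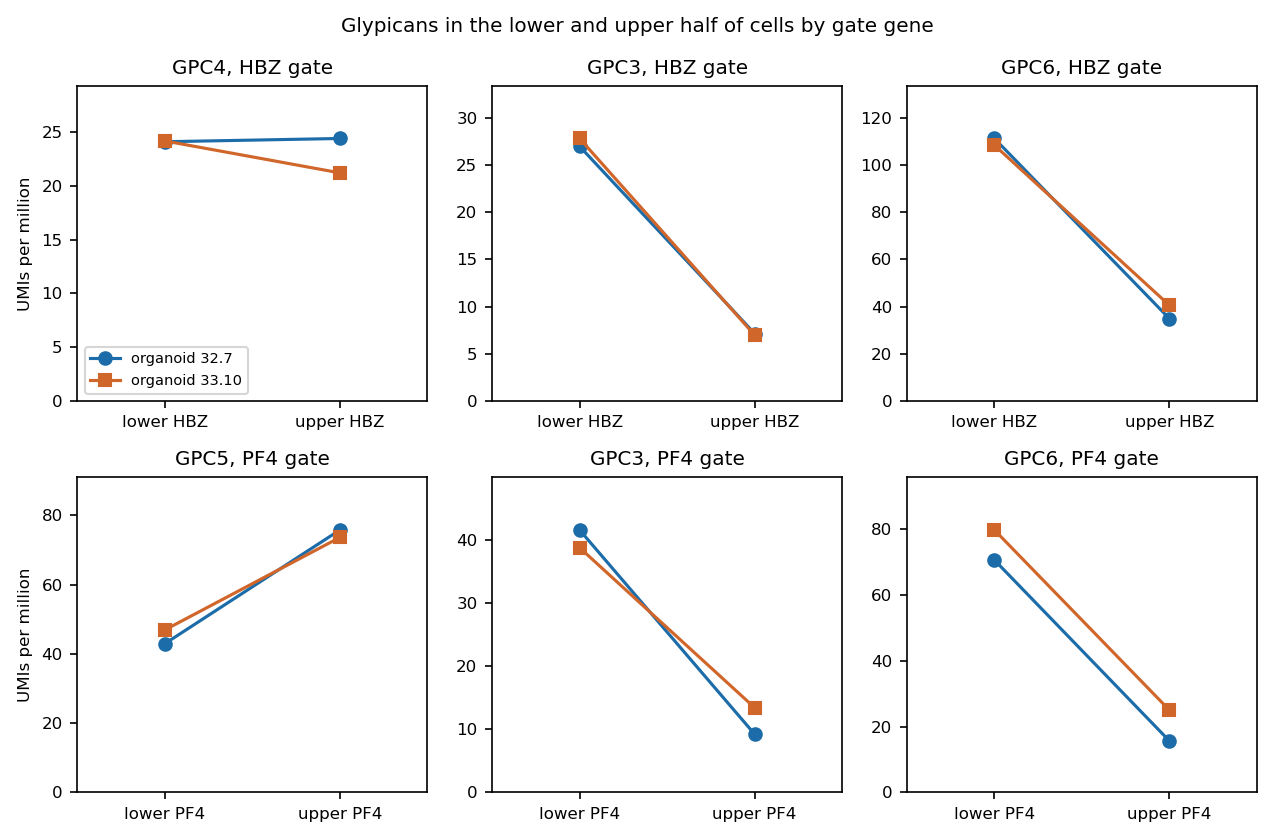
Levels in CPM (vertical axes, from 0) of *GPC4*, *GPC3* and *GPC6* in the *HBZ* gate and of *GPC5*, *GPC3* and *GPC6* in the *PF4* gate, in the cells of lower and upper gate gene content (horizontal axis), for organoid 32.7 (circles) and 33.10 (squares). *GPC3* and *GPC6* were lower in cells of higher gate gene content in both gates of both organoids, *GPC5* was higher there in the *PF4* gate, and *GPC4* lay at 21.2 to 24.4 in the *HBZ* gate.

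The second description was the company each glypican kept. Among thinned *HBZ* cells with a *GPC3* UMI, 61.4% and 55.6% also had a *GPC6* UMI, against 14.8% and 12.4% of those without *GPC3*. In the *PF4* gate the shares were 54.1% and 53.1% against 8.82% and 8.24%. *HBZ* cells with a *GPC4* UMI had *GPC6* in 12.8% and 15.9%, against 18.1% and 14.2% of those without *GPC4*. *PF4* cells with a *GPC5* UMI had *GPC6* in 4.40% and 10.6%, against 13.4% and 10.7% of those without *GPC5*. In the *COL3A1* gate, where both genes were common, *GPC6* was in 73.2% and 73.3% of cells with *GPC3* and in 69.9% and 63.2% of those without. The third was the ratio of UMIs to those of *GPC3* in the *COL3A1* gate and the blood gates. *COL1A2* per *GPC3* was 1.51 and 1.15 in the *COL3A1* gate, 1.92 and 1.36 in *HBZ*, 1.65 and 1.42 in *PF4* and 1.46 and 2.49 in *PTPRC*. *GPC4* per *GPC3* was 0.0386 and 0.0266 in the *COL3A1* gate and 1.38 and 1.25 in the *HBZ* gate. It was 0.117 and 0.117 in *PF4* and 0.260 and 0.295 in *PTPRC*. *GPC6* per *GPC3* was 1.38 and 1.07 in the *COL3A1* gate and 4.27 and 4.23 in the *HBZ* gate. The blood gates differed in this ratio. In *PF4* it was 1.70 and 2.02, nearer to the *COL3A1* gate. In *PTPRC* it was above the *HBZ* value in both organoids, with 12.2 in 33.10.

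Beside these values, the summed level of the 6 stromal markers was 3190 and 2420 CPM in the *COL3A1* gate, 110 and 79.4 in *HBZ*, 151 and 129 in *PF4*, 74.8 and 54.0 in *PTPRC*, 87.5 and 107 in *CDH5* and 392 and 399 in *MYH6*. In the *AFP* gate the sum was 540 and 264 CPM. The *MYH6* gate was also split at the median of its gate gene per UMI. Cells of lower *MYH6* had a median of 8915 and 10830 UMIs against 6286 and 9384 in the others. *GPC3* was at 69.3 and 62.8 CPM in cells of lower *MYH6* and 44.2 and 35.4 in the others. *GPC6* was at 390 and 365 against 304 and 391. The part of stromal RNA or of mixed droplets in the *GPC3* and *GPC6* levels of the blood, *CDH5*, *MYH6* and *AFP* gates was not tested.

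Within the *CDH5* gate, arterial cells (at least 2 UMIs of *CXCR4* and *DLL4* together and no *NR2F2*, 1194 and 1049 cells) were compared with venous cells (at least 2 UMIs of *NR2F2* and under 2 of the others, 343 and 333 cells). *GPC1* was at 7.93 and 5.85 CPM in arterial and 2.82 and 3.12 in venous cells, with no overlap, and *GPC3* at 4.95 and 9.10 against 18.9 and 18.7. *GPC1* was called higher in arterial cells by 1.36 (SE 0.38, edgeR adjusted p = 0.0191), 1 of 6 against 4.25% of all 21062 genes tested. *GPC3* was called lower (-1.31, SE 0.43, edgeR adjusted p = 0.0428), 1 of 6 against 6.27%. Both calls were lost on leaving out either organoid, with 1.04 and 1.63 for *GPC1* (edgeR adjusted p = 0.3 and 0.0799, over all alternatives 0.00145 to 0.3) and -0.90 and -1.78 for *GPC3* (edgeR adjusted p = 0.433 and 0.102, over all alternatives 0.00458 to 0.785). The *GPC3* difference was -0.26 with halved and -0.43 with doubled thresholds, -0.71 with cells over several thresholds kept and -5.30 with 10% of the UMIs of every gate removed in the proportions of the whole library, none of them called. The removal left *GPC3* with few or no UMIs in arterial and venous cells, so -5.30 is no bound. *GPC6* was at 406 and 519 CPM in arterial and 318 and 354 in venous cells, a difference of 0.60 (SE 0.13, edgeR adjusted p = 0.00505) under the fold required.

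Within the *COL3A1* gate, cells with at least 2 UMIs of *WT1* and *TBX18*, transcription factors of the epicardium (812 and 893 cells), were compared with cells with at least 5 UMIs of *LUM*, a proteoglycan of fibroblasts, and under 2 of the others (1100 and 484 cells). *GPC5* was at 19.3 and 15.8 CPM in *WT1/TBX18* cells and at 68.3 and 27.1 in *LUM* cells, with no overlap and a large gap between the organoids in the latter. *GPC6* was at 691 and 626 against 873 and 865, and *GPC3* at 597 and 755 against 509 and 646, where the ranges overlapped. The edgeR test called none of the 6 glypicans, where 1.1% of 21121 genes were called higher and 0.739% lower. At an unadjusted p under 0.05, 2 of 6 passed in edgeR, and DESeq2 called 1. *GPC5* (-1.62, SE 0.41, edgeR adjusted p = 0.0543) missed the adjusted threshold, and with the organoid as a block, which pairs the gates of 1 organoid, it was called (-1.58, edgeR adjusted p = 0.00485, over all alternatives 0.00485 to 0.605). *GPC6* differed by -0.52 (SE 0.12, edgeR adjusted p = 0.031).

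Cycling stroma (at least 3 UMIs of *MKI67* and *TOP2A* together, 295 and 400 cells) was compared with stroma at 0 for both (2082 and 1680 cells). *GPC3* was at 412 and 418 CPM in cycling and at 539 and 638 in non-cycling cells, and *GPC4* at 11.7 and 13.5 against 21.7 and 16.6, lower in both organoids. The edgeR test called none of the 6, where 2.95% of 21228 genes were called higher and 1.82% lower. At an unadjusted p under 0.05, 1 of 6 passed in edgeR, and DESeq2 called 0. The fitted differences were -0.56 for *GPC3* (95% interval -1.12 to 0.00) and -0.67 for *GPC4* (-1.24 to -0.09), and those of the other 4 lay between -0.57 and -0.02.

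**Figure D5:**
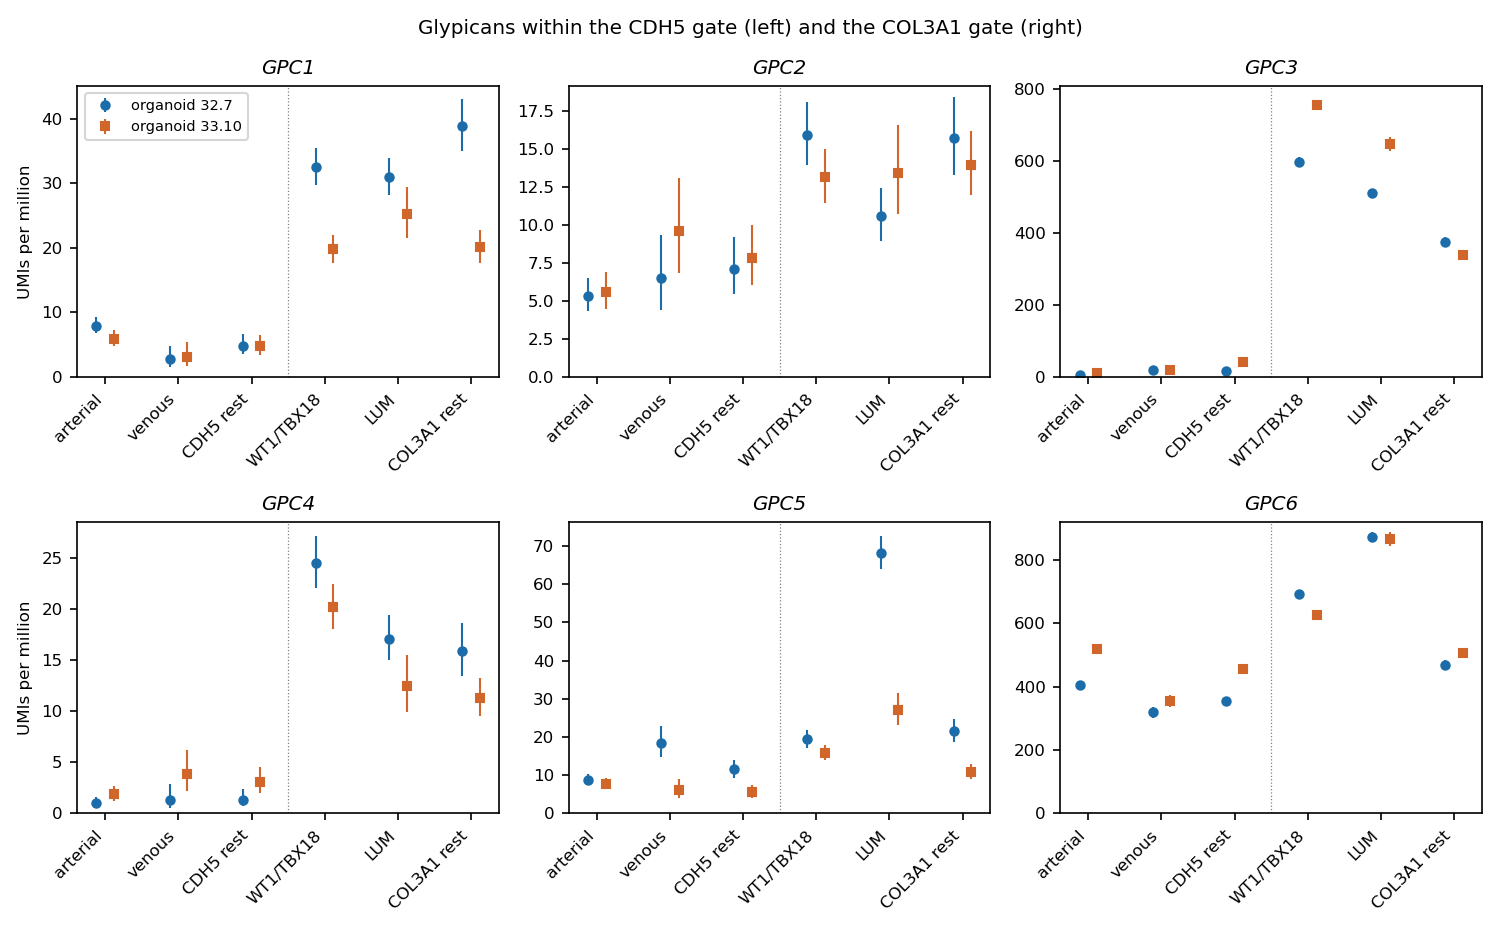
Levels in CPM (vertical axes, linear from 0) of the 6 glypicans in arterial, venous and other *CDH5* cells (left of the dotted line) and in *WT1/TBX18*, *LUM* and other *COL3A1* cells (right), for organoid 32.7 (circles) and 33.10 (squares), with exact 95% Poisson intervals. *GPC5* in *LUM* cells was 68.3 in 32.7 and 27.1 in 33.10, and *GPC6* was 873 and 865 there.

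Cells outside the gates held glypicans too. The 6011 and 6765 cells with no gate gene at its threshold were shallow (median 2934 and 4205 UMIs), with 205 and 223 CPM of *GPC3* and 315 and 319 of *GPC6*. The 1576 and 1957 cells over several thresholds were deep (median 20633 and 23514 UMIs) and gave 211 and 171 CPM of *GPC3* and 383 and 335 of *GPC6*. Gated cells therefore held from 57.1% (*GPC2*, 33.10) to 69.0% (*GPC5*, 32.7) of all UMIs of a glypican in the kept cells.

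For each glypican the 3 genes of most similar level were sought among 10409 genes by Pearson r of log2(CPM + 1) over the 14 gate sums, as a description. *GPC1* was closest to *DOK4* (r 0.98), *FMN2* (0.98) and *RTL8C* (0.97), and *GPC2* to *FXYD6*, *ABCA8* and *SOX12* (each 0.98). *GPC3* was closest to *SOX9*, *ARSE* and *F10* (each 0.99), of which *SOX9* is a transcription factor of endoderm and cartilage and *F10* a clotting factor made in liver. *GPC4* was closest to *SLC2A1* (0.94), the glucose transporter of red cells and many other tissues, followed by *CTSV* (0.92) and *CEP70* (0.92). *SLC2A1* was at 133 and 159 CPM in the *HBZ* gate, 139 and 138 in the *MYH6* gate and 113 and 80.6 in the *COL3A1* gate. *GPC5* was closest to *OST4* (0.97), *SWI5* (0.93) and *RGS9* (0.91), all highest in the *PF4* gate, and *GPC6* to *PANCR* (0.99), *FARP1* (0.98) and *TSPAN3* (0.97). The points of 1 organoid share a library, and a gate pattern over 7 gates leaves many genes with a high r. *FMN2*, *FXYD6* and *ABCA8* were at 0 in the *AFP* gate of 33.10, where a count of 0 allows up to 17.2 CPM.

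The genes that build and trim heparan sulphate, and those of known partners, were read from lists. They held 10 genes for chain start and polymerisation, 16 for chain modification, 9 for trimming, 7 other heparan sulphate core proteins and 20 partners. The trimming list holds enzymes that act on chain or anchor, and also the proprotein convertases *PCSK5* and *PCSK6*, which cut proteins. In the *COL3A1* against the *CDH5* gate 4 of 7 other core proteins were called higher and 1 lower (list median log2 fold change 2.12, all genes 0.06), where 19.8% of all genes were called higher and 10.1% lower. The syndecans *SDC2* (4.86) and *SDC4* (3.62) led, and perlecan, *HSPG2* (-3.67), was lower. Of 18 partners tested 10 were higher and 3 lower (median 1.49), led by *FGFR2* (4.87) and the ligand *WNT5A* (4.04) and, lower, by the VEGF receptor *FLT1* (-3.54) and the guidance receptor *ROBO1* (-2.26). Of 14 modification genes 4 were higher and 2 lower (median 0.07), with the sulphotransferases *HS3ST3B1* (4.59) and *HS3ST5* (4.14) against *NDST1* (-2.59) and *HS3ST1* (-1.80). Of 9 trimming genes 3 were higher and 2 lower (median -0.25), with the sulphatase *SULF1* (3.97) and *NOTUM* (2.51), an enzyme that acts on WNT and on glypican anchors, against heparanase, *HPSE* (-1.15), and *SULF2* (-1.11). Of 10 genes that start and extend the chain only *XYLT1* (-1.10) was called (median -0.11).

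In the blood gates against the others the partners were called lower in 11 of 18 cases (median -1.72, all genes -0.08), where 23.5% of all genes were called lower and 12.4% higher, led by *SLIT2* (-3.56) and *FGFR1* (-3.04). Other core proteins were lower in 5 of 7 (median -1.48), led by *SDC3* (-2.56) and *HSPG2* (-1.91), and chain start and polymerisation genes in 3 of 10 (median -0.61), led by the polymerase *EXT1* (-2.87) and *EXTL3* (-1.64). Chain modification genes were lower in 6 of 14 and higher in 1 (median -0.86), with *HS6ST3* (-3.14) and *NDST3* (-2.46) against *HS3ST4* (2.29). Trimming genes were higher in 2 of 9 and lower in 3 (median 0.30), with *HPSE* (3.84) and *NOTUM* (1.34) against *SULF1* (-2.05) and *PCSK5* (-2.03). Between *PF4* and *HBZ* cells 17.3% of all genes were called higher and 8.77% lower. Of the lists, *HPSE* (7.20), *NDST3* (3.80), *PCSK6* (3.27), *XYLT2* (3.14), *SDC3* (1.40), *HS3ST3A1* (1.33) and *SDC4* (1.05) were called higher in *PF4* cells. *HS3ST4* (-4.64), *HS6ST2* (-4.27), *FGFR3* (-3.03), *DHH* (-2.58), *AGRN* (-1.23) and *PCSK5* (-1.12) were called higher in *HBZ* cells. The list medians were 0.53, 0.07, -0.05, 0.30 and 0.20 for chain start, modification, trimming, core proteins and partners, against 0.17 for all genes.

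In the *MYH6* against the *COL3A1* gate 10.1% of all genes were called higher and 12.6% lower (median of all genes -0.07). Chain start genes gave 1 higher, *XYLT1* (1.80), and 2 lower, *B3GAT3* (-1.13) and *B4GALT7* (-1.05), with a median of -0.27. Modification genes gave 4 lower, led by *HS3ST3B1* (-3.72) and *HS3ST1* (-2.35), with a median of -0.75. Trimming genes gave 1 higher, *NOTUM* (1.48), and 4 lower, led by *SULF1* (-4.16) and *PCSK5* (-2.52), with a median of -0.83. Core proteins gave 1 higher, *HSPG2* (1.44), and 3 lower, led by *SDC4* (-1.86) and *SDC2* (-1.48), with a median of -0.33. Partners gave 1 higher, *SLIT2* (2.57), and 4 lower, led by the growth factor *IGF2* (-3.85) and the Hedgehog effector *GLI1* (-1.80), with a median of -0.71.

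In the *AFP* against the *COL3A1* gate 4 of 19 partners were called higher and 3 lower (median -0.34, all genes -0.21), against 6.54% and 6.88% of all genes. The leading pair were genes of Hedgehog ligands. *IHH* was at 17.0 and 34.5 CPM in the *AFP* gate and at 0 and 0.0283 in the *COL3A1* gate, and *SHH* at 6.37 and 5.75 against 0 in both organoids, of which the value of 33.10 lies under the 17.2 CPM that a count of 0 allows there. SHH was also among the factors added to the medium. Partners called lower were led by *PTPRD* (-1.78) and *WNT5A* (-1.54). *CD81*, a membrane protein that binds GPC3, was at 753 and 650 CPM in the *CDH5* gate, 468 and 461 in the *COL3A1* gate, 283 and 328 in the *AFP* gate and 121 and 112 in the *HBZ* gate. *FLT1* was at 2179 and 2239 CPM in the *CDH5* gate and at 49.1 to 202 in all other gates.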

How the data were processed

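The deposited files held raw counts of UMIs per gene and barcode, which the authors had made per organoid with Cell Ranger 7.0.0 on the GRCh38 reference of 10x Genomics with intronic reads included, and which precede their later depth equalisation and SoupX correction. The paper reports default parameters and does not name the strand setting. The members and lists were chosen with earlier results of these data known. Cells with 50 to 11000 genes and under 30% mitochondrial UMIs were kept. Gate thresholds were at least 50 UMIs of *HBZ*, 10 of *PF4*, 2 of *PTPRC*, 2 of *CDH5*, 5 of *MYH6*, 10 of *COL3A1* and 10 of *AFP*. Cells over several thresholds were left out, which removes some doublets, and no doublet caller was run. UMIs were summed per gate and organoid and tested with edgeR's quasi-likelihood test (edgeR 4.0.16, R 4.3.3, TMM, filterByExpr, Benjamini-Hochberg adjustment over all genes tested), after the code had been tested on simulated data. Standard errors were derived from the log2 fold change and the F statistic. The *AFP* gate was left out of that fit because organoid 33.10 gave fewer than 20 cells, so blood was compared with 3 other gates rather than 4. It and the 3 comparisons within blood were fitted as additions chosen after the levels had been seen.

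Gates of 1 organoid share its library, and deviations of same-organoid gates correlated with r of 0.0942 to 0.318 over 21702 genes, so the organoid was also fitted as a block. Alternatives were halved and doubled thresholds, cells over several thresholds kept, cells of at least 3000 or at most 30000 UMIs, 10% of free RNA removed, DESeq2 1.42.0, RLE size factors, no filter, the block and leaving out each organoid. Kept cells over several thresholds were counted in every gate they passed. Free RNA removal subtracted UMIs from every gate sum in the proportions of the whole library, with no count left negative. Named genes were the 6 glypicans, the 2 most changed called genes of each list in each direction, *CD81*, *FLT1* and the 3 genes of highest r to each glypican among genes with at least 20 CPM in 1 gate in both organoids. Shares used Python 3.11.15, numpy 2.4.6, scipy 1.17.1 and pandas 2.3.3. Promoters came from RefSeq, where 5 of 6 genes matched. Of the markers and medium factors, 1 of each is not reported here.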

Additional observations from a re-analysis of the deposited data

Results flagged for a closer look

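Genes transcribed across *GPC5* and *GPC6* on the opposite strand were counted but used in no comparison. *GPC6-AS1* had a mean of 4.15 CPM in the *COL3A1* gate (4.56 and 3.74) and *GPC6-AS2* a mean of 1.62 (1.92 and 1.33). *GPC5-AS2* had a mean of 0.851 CPM in the *PF4* gate (0.771 and 0.931), the gate where *GPC5* was highest, and *GPC5-AS1* a mean of 0.356 in the *COL3A1* gate (0.570 and 0.142). All 4 were singled out because they stood above the level that a count of 0 allows. The paper reports Cell Ranger with default parameters and does not name the strand setting. Whether reads of these genes and of their hosts were kept apart was not tested.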

How the results depend on the processing

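Of 780 values of single glypicans under alternatives, 732 stayed on their side of the threshold, 30 lost the call and 18 gained it. Of values called with or without the alternative 0 turned direction, whereas some that were called in neither did, such as *GPC4* in *AFP* against *COL3A1* (-0.23, over all alternatives -0.68 to 1.11). Cells over several thresholds, where kept, were counted in every gate they passed, so compared gates could share cells. Smaller differences between gates are then partly built into the setting. With these cells kept, the glypicans called fell from 5 to 3 for *COL3A1* against *CDH5*, from 4 to 2 for *MYH6* against *CDH5*, from 2 to 0 for arterial against venous cells and from 3 to 1 for *PF4* against *PTPRC*. The genes called fell from 6480 to 4280 (*COL3A1* against *CDH5*), 4928 to 2140 (*MYH6* against *COL3A1*), 7686 to 4766 (*MYH6* against *CDH5*), 7790 to 4251 (blood against others), 388 to 141 (*WT1/TBX18* against *LUM*), 5660 to 2776 (*PF4* against *HBZ*), 6243 to 3505 (*PF4* against *PTPRC*) and 5443 to 3209 (*HBZ* against *PTPRC*). Halved thresholds gave 1 glypican for arterial cells and 1 for *WT1/TBX18*, and doubled thresholds 1 for arterial cells, 2 for *HBZ* against *PTPRC* and 222 genes for *WT1/TBX18*. Removal of 10% of free RNA gave 1 glypican for arterial cells, 5 for *PF4* against *HBZ*, 5 for *PF4* against *PTPRC*, 2 for *HBZ* against *PTPRC* and 234 genes for *WT1/TBX18*. That removal set negative counts to 0. Fitted values that rest on counts at or near 0 are no bound, such as 6.92 for *GPC1* and 5.10 for *GPC3* in *PF4* against *HBZ*. For *WT1/TBX18* a limit of 30000 UMIs, DESeq2 and no filter gave 1 glypican each, and the organoid as a block gave 1 glypican (*GPC5*) and 715 genes. The block, which pairs the gates of an organoid, changed no other glypican call. The causes were not tested.

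Leaving out 1 organoid gave 1306 to 2168 genes for *AFP* against *COL3A1* (2907 with both), 4851 to 5514 for *COL3A1* against *CDH5*, 3551 to 3661 for *MYH6* against *COL3A1*, 6306 to 6335 for *MYH6* against *CDH5*, 4463 to 4871 for *PF4* against *HBZ*, 4749 to 5260 for *PF4* against *PTPRC*, 4629 to 4661 for *HBZ* against *PTPRC*, 1240 to 1433 for arterial cells (2216 with both), 36 to 145 for *WT1/TBX18* and 574 to 624 for cycling stroma (1012 with both). The glypicans called were then 1 to 4, 4 to 5, 2 to 3, 4 to 4, 2 to 2, 2 to 2, 1 to 2, 0 to 0, 0 to 0 and 0 to 0 in the same order. Each compared gate was then 1 sum, assumed to vary like the other gates of the fit, which kept both organoids. Blood against the others left no such gate and could not be fitted. Other size factors moved the median log2 fold change of all genes from 0.01 to 0.13 for *HBZ* against *PTPRC* and from -0.21 to -0.01 (DESeq2) for *AFP* against *COL3A1*.

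Thinning to 6000 UMIs, or none, raised the mean share of cells with a UMI from 9.07% to 16.7% and 24.6% (*GPC1*, *MYH6*), 4.22% to 8.88% and 14.4% (*GPC2*, *MYH6*), 58.4% to 69.0% and 80.3% (*GPC3*, *COL3A1*), 14.0% to 25.2% and 33.0% (*GPC4*, *MYH6*), 10.8% to 16.5% and 17.1% (*GPC5*, *PF4*) and 70.5% to 84.7% and 92.8% (*GPC6*, *COL3A1*). With 2 organoids of 1 line the p-values cover only the spread between these organoids, and *GPC1*, *GPC2*, *GPC4* and *GPC5* in the *AFP* gate rest on 0 to 17 UMIs.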
